A study of Mus musculus with 8 samples.

Results

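The small leucine-rich proteoglycans (SLRPs) described here are 10 matrix genes, *Dcn*, *Bgn*, *Lum*, *Fmod*, *Ogn*, *Omd*, *Aspn*, *Prelp*, *Podn* and *Ecm2*. They were chosen by name from a table of 19201 genes, with earlier results of these data known, and all 10 had enough counts to be tested among 15318 genes. The study compared RNA-Seq of cortical bone between 4 *Prx1Cre; Piezo1fl/fl* samples (*Piezo1*-deficient below) and 4 WT samples, to find what loss of the mechanosensitive channel PIEZO1 from limb bone cells changes there. All mice were of strain C57BL/6J and 6 weeks old, and each genotype has replicates numbered 1, 3, 4 and 5. Tibial and femoral cortices were ground whole in liquid nitrogen, so osteoblasts, osteocytes, osteoclasts, marrow, vessels and attached soft tissue all gave RNA. *Prx1Cre* drives recombination in limb mesenchyme and its descendants, and blood-derived cells and endothelium keep a working *Piezo1*. The labels do not state whether each sample is a separate animal, so the p-values measure the spread between these samples, which may be technical.

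SLRPs are secreted proteins built around a row of leucine-rich repeats, and most carry sulfated sugar chains. They sit on the surface of collagen fibrils, where they limit fibril thickness and spacing, and several also bind growth factors of the TGF-β family. In bone, decorin and biglycan are among the abundant non-collagenous matrix proteins, and PRELP and chondroadherin are known mainly from cartilage. The family is sorted into classes by sequence. Class I includes *Dcn*, *Bgn* and *Aspn*, class II includes *Lum*, *Fmod*, *Omd* and *Prelp*, class III includes *Ogn*, and *Podn* belongs to a separate class. *Ecm2* is a less studied relative that shares the leucine-rich repeats.

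Libraries held between 11963536 and 14536106 counts, of which the 10 genes took between 60329 and 89403. Counts were scaled to a common library total (CPM), adjusted by the trimmed mean of M-values (TMM) factors of edgeR. In *Piezo1*-deficient replicates 1, 3, 4 and 5 the factors were 0.888, 0.998, 0.988 and 0.953. In the same-numbered WT replicates they were 1.01, 1.04, 1.06 and 1.07. Every *Piezo1*-deficient factor was thus below every WT factor, and a lower factor gives a higher CPM. No alternative was run without scaling factors, and overlap of single genes below is judged on these scaled values. *Piezo1* itself, the deleted gene, stood at 145.9, 140.1, 131 and 136 CPM in *Piezo1*-deficient replicates 1, 3, 4 and 5, against 194, 213, 199 and 214 CPM in the same-numbered WT replicates. The genotypes did not overlap (edgeR log2 fold change -0.57, SE 0.064, adjusted p = 0.0027). Below, 4 values of a genotype always follow the order of replicates 1, 3, 4 and 5.

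Most of the 10 chosen SLRP genes had higher transcript levels in *Piezo1*-deficient than in WT cortical bone. This did not hold for the rest of the family. Of 8 other family genes 6 were tested, none was called higher and 2 were called lower, with a median log2 fold change of -0.63. *Aspn*, *Podn*, *Ogn*, *Omd*, *Dcn* and *Lum* rose, by between 1.33-fold for *Lum* and 2.32-fold for *Aspn*. No member fell by the test, although *Prelp* had 0.360 times the WT mean. A gene was called where the edgeR quasi-likelihood test gave an adjusted p (Benjamini-Hochberg over all tested genes) under 0.05. By that rule 6 of the 10 members were called higher, and 2.04% of all tested genes were. None of the 10 was called lower, and 0.973% of all tested genes were. The test was not passed by *Bgn*, *Fmod*, *Prelp* and *Ecm2*. *Piezo1*-deficient libraries lay above every WT library for 7 members, the called ones and *Ecm2*, and 6.65% of all tested genes were separated in that direction. No member was separated in the lower direction, and 5.27% of all tested genes were. In RNA of whole bone, more cells of a type and more RNA per cell cannot be told apart, nor can fewer cells and less RNA, and this holds for every gene described here. The median log2 fold change of the 10 members was 0.51, beside 0.0050 over all tested genes. In the plot of fold changes with their intervals, 9 members lie to the right of 0 and *Prelp* lies to the left. The count of members called higher was 3 after leaving out WT replicate 3, 4 or 5, and between 4 and 6 after leaving out any other single library. Over all genes, 102, 82 and 71 were called higher without WT replicate 3, 4 and 5, against 313 with all libraries.

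**Figure D1:**
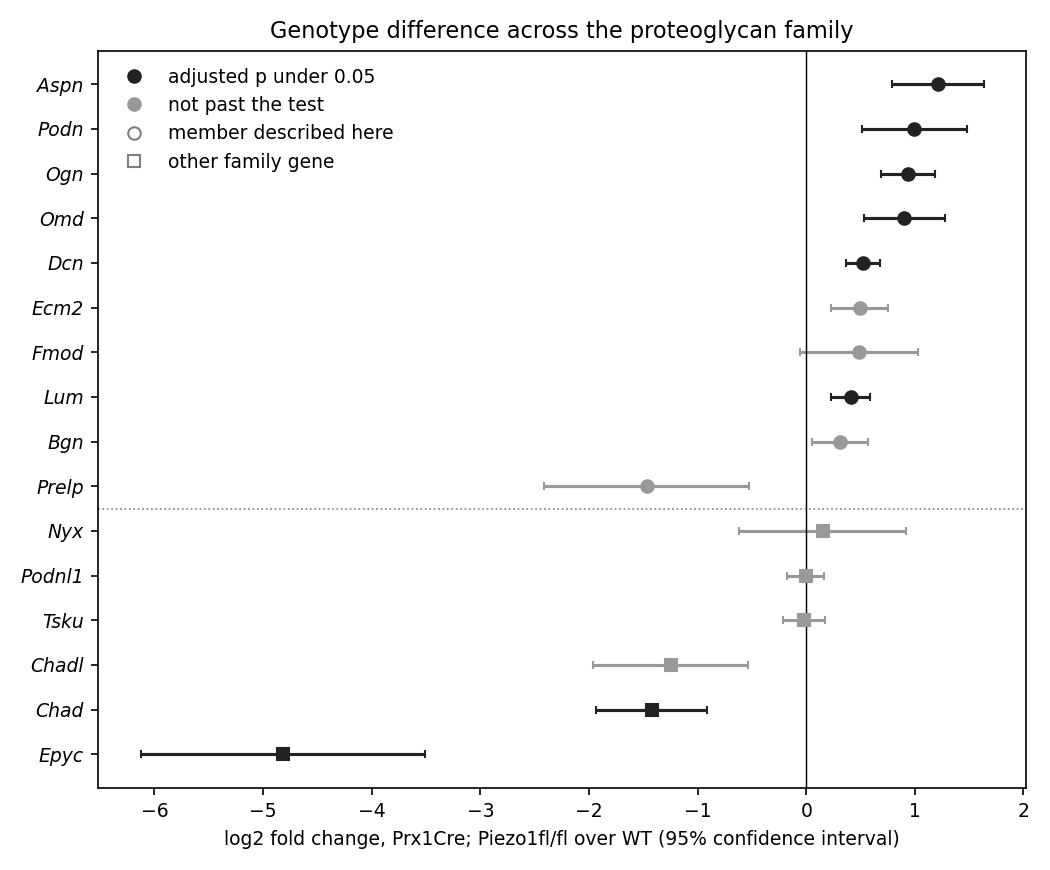
Log2 fold change (*Piezo1*-deficient over WT, x axis) with its 95% confidence interval from edgeR for the 10 SLRP genes (circles) and 6 further tested family genes (squares), with dark symbols where the adjusted p was under 0.05. The 6 members past the test lie between 0.41 and 1.21, and *Prelp* at -1.47 is the only member below 0.

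Summed over the 10 members, SLRP transcripts came to 6799.9 ± 511 CPM in *Piezo1*-deficient bone and 5093 ± 401 CPM in WT bone (SD, n = 4 each). As a share of all counts, before any scaling, they took 0.648% ± 0.0151 in *Piezo1*-deficient libraries and 0.531% ± 0.0267 in WT libraries. The 3 most abundant members, *Bgn*, *Dcn* and *Lum*, supplied most of the members' counts in both genotypes. Of the SLRP counts, *Bgn* gave 45.6% ± 3.24 in *Piezo1*-deficient and 49.2% ± 2.03 in WT libraries, and *Dcn* gave 25.1% ± 2.06 in *Piezo1*-deficient and 23.3% ± 1.53 in WT libraries (SD, n = 4 each). *Aspn* gave 2.66% of the SLRP counts in *Piezo1*-deficient libraries, against 1.52% in WT libraries, while *Prelp* gave 0.193% in *Piezo1*-deficient libraries, against 0.694% in WT libraries. These shares add up to a fixed total, so a larger share of 1 gene lowers the others.

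Levels of different genes are comparable only per length of transcript. Divided by the length of all exons of each gene, the mean levels of *Bgn*, *Dcn* and *Lum* were 874, 878 and 594 CPM per kb in *Piezo1*-deficient bone, against 704, 611 and 447 CPM per kb in WT bone. In a middle range, *Fmod*, *Aspn*, *Omd* and *Ogn* had means of 98.4, 77.4, 70.4 and 42.2 CPM per kb in *Piezo1*-deficient bone, against 70.2, 33.4, 37.6 and 22.1 CPM per kb in WT bone. The lowest levels per length were those of *Ecm2*, *Prelp* and *Podn*, with means of 3.80, 3.61 and 0.59 CPM per kb in *Piezo1*-deficient bone, against 2.69, 10.02 and 0.29 CPM per kb in WT bone. The order was the same in all 4 WT libraries, running *Bgn*, *Dcn*, *Lum*, *Fmod*, *Omd*, *Aspn*, *Ogn*, *Prelp*, *Ecm2* and *Podn*. Neighbours in that order did not always differ beyond their spread. In *Piezo1*-deficient replicates 3 and 4 *Dcn* stood above *Bgn*, and in replicates 1 and 5 below it. *Aspn* stood above *Omd* in *Piezo1*-deficient replicates 1, 3 and 5, and *Ecm2* stood above *Prelp* in replicates 1 and 3. *Omd* stood above *Fmod* in *Piezo1*-deficient replicate 4.

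**Figure D2:**
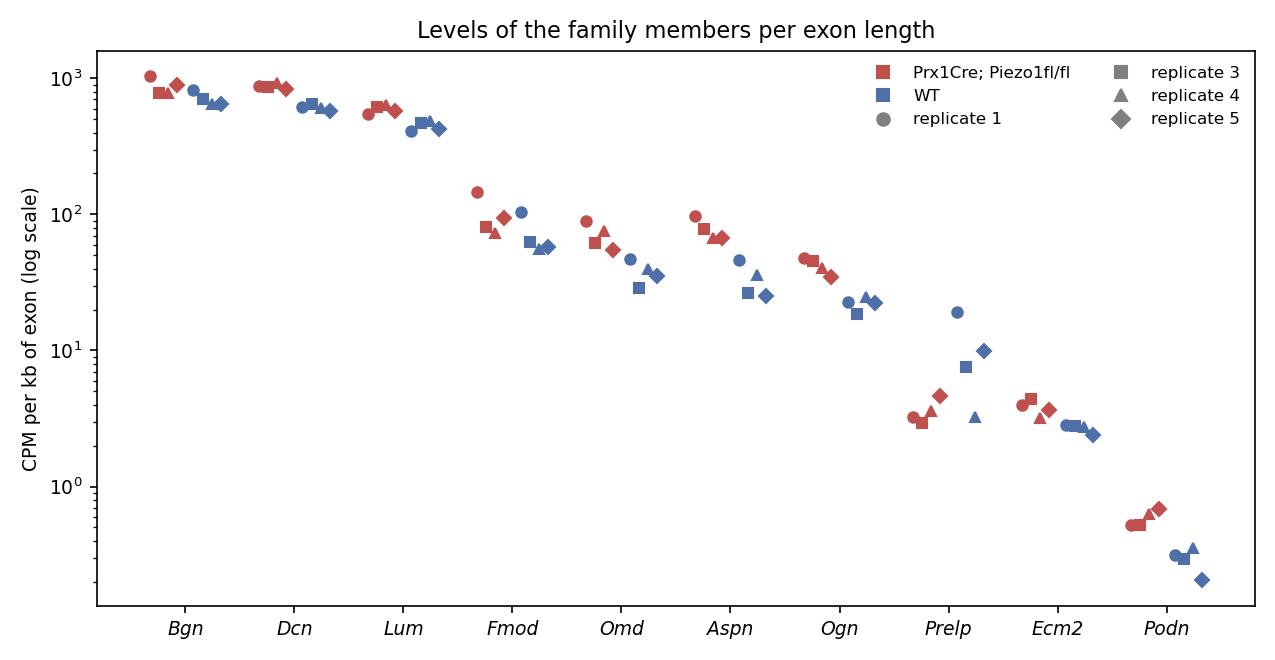
Level of each SLRP gene in CPM per kb of exon (y axis, log scale) in the 4 *Piezo1*-deficient libraries (red, left of each pair) and the 4 WT libraries (blue), ordered by WT mean, with a symbol for each replicate number. *Bgn*, *Dcn* and *Lum* lie above the other 7 genes in every library, and *Prelp* is the gene whose WT libraries spread most, from 3.22 to 19.3 CPM per kb.

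Decorin, encoded by *Dcn*, carries 1 chondroitin or dermatan sulfate chain, binds type I collagen and restrains fibril growth. *Dcn* stood at 1709, 1662, 1798 and 1631 CPM in *Piezo1*-deficient libraries, against 1189, 1254, 1172 and 1121 CPM in WT libraries. Every *Piezo1*-deficient library was above every WT library, and the spread within a genotype was small, with a coefficient of variation of 4.30% in *Piezo1*-deficient and 4.62% in WT libraries. The log2 fold change was 0.52 (SE 0.069, 95% interval 0.37 to 0.68, adjusted p = 0.0051 from edgeR). Biglycan, encoded by *Bgn*, is the closest relative of decorin and is needed for normal bone mass in mice. *Bgn* stood at 3713, 2788, 2779 and 3178 CPM in *Piezo1*-deficient libraries, against 2929, 2494, 2306 and 2308 CPM in WT libraries. The genotypes overlapped, because WT replicate 1 was above *Piezo1*-deficient replicates 3 and 4. The difference did not pass the test (edgeR log2 fold change 0.31, SE 0.12, 95% interval 0.05 to 0.57, adjusted p = 0.182).

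Asporin, encoded by *Aspn*, is a class I protein with a run of aspartic acid that lacks the usual attachment site for a sugar chain, and it binds collagen and TGF-β. *Aspn* had the largest rise of the members, at 228, 182, 158 and 158 CPM in *Piezo1*-deficient libraries, against 108, 62.2, 83.5 and 58.9 CPM in WT libraries. No library of 1 genotype reached the range of the other, and replicate 1 was the highest of each. The log2 fold change was 1.21 (SE 0.19, 95% interval 0.79 to 1.64, adjusted p = 0.0112 from edgeR). *Ecm2*, extracellular matrix protein 2, stood at 14.3, 15.8, 11.5 and 13.04 CPM in *Piezo1*-deficient libraries, against 10.2, 9.98, 9.91 and 8.67 CPM in WT libraries. The libraries of the genotypes were separated (exact two-sided permutation test, p = 0.0286, as for each separated member, and no 4 against 4 design gives a smaller one). Across all genes *Ecm2* missed the threshold narrowly, with a log2 fold change of 0.49 (SE 0.12, 95% interval 0.23 to 0.76, adjusted p = 0.0528 from edgeR). It passed in 3 of 15 alternatives, among them the Wald test of DESeq2 (adjusted p = 0.0222) and leaving out *Piezo1*-deficient replicate 4 (adjusted p = 0.0485 from edgeR). In the others it did not pass, with an adjusted p of up to 0.165 from edgeR without WT replicate 5.

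**Figure D3:**
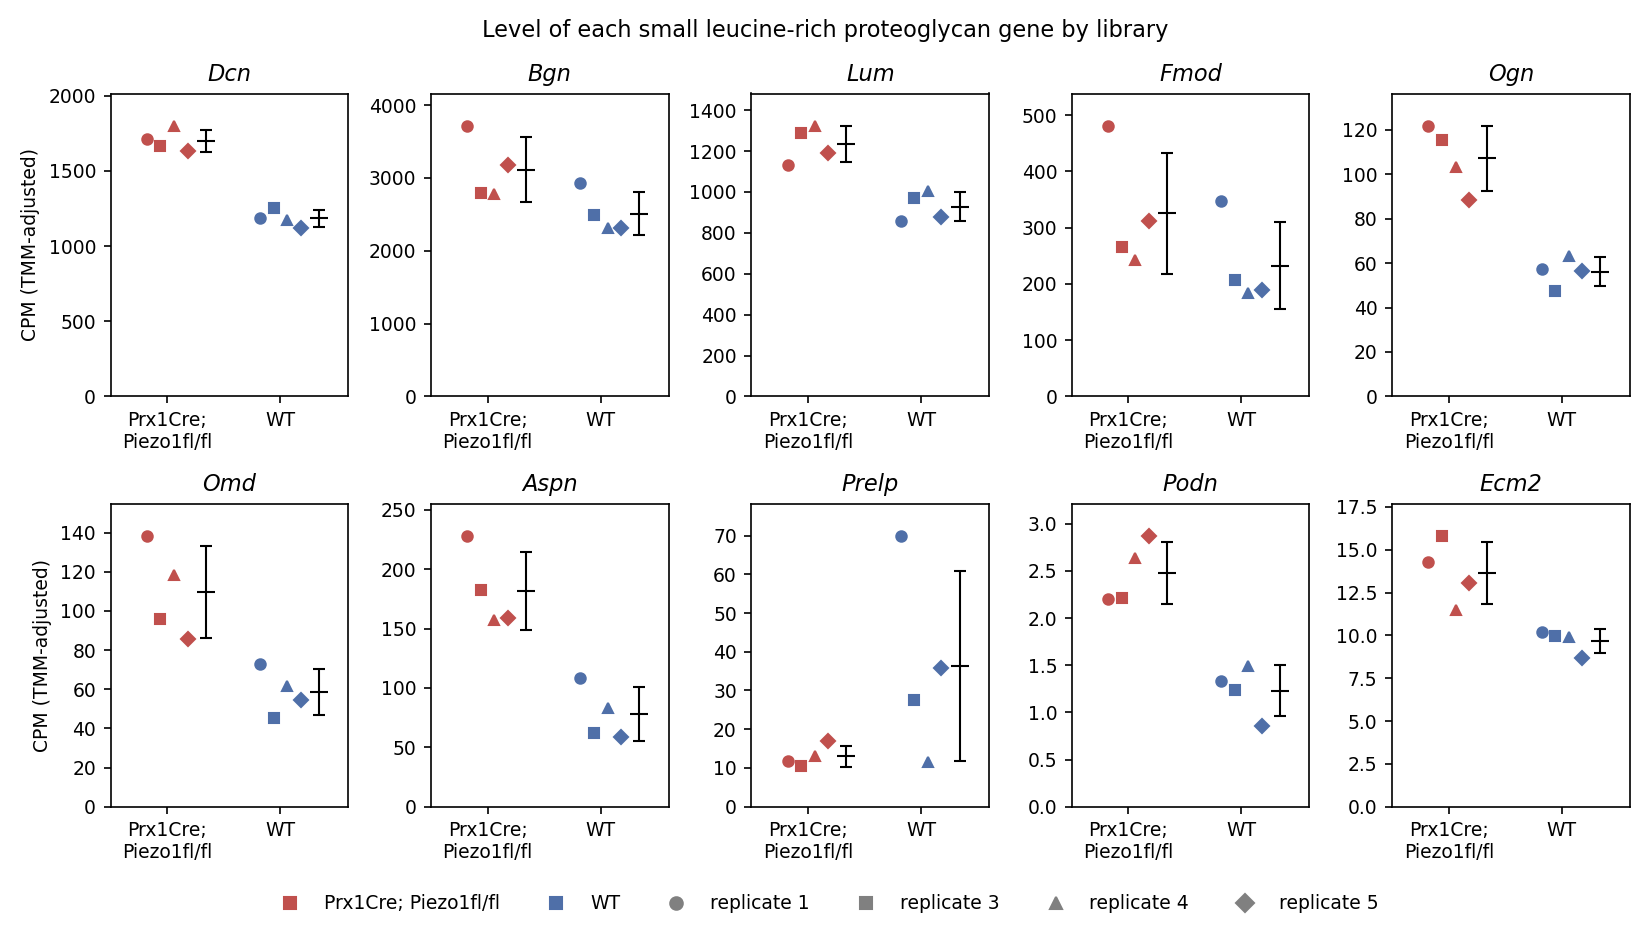
CPM (y axis, starting at 0) of the 10 SLRP genes in the 4 *Piezo1*-deficient libraries (red) and the 4 WT libraries (blue), with symbols for the replicate number and bars for mean and SD. All red points lie above all blue points for *Dcn*, *Lum*, *Ogn*, *Omd*, *Aspn*, *Podn* and *Ecm2*, and replicate 1 is highest in both genotypes for *Bgn*, *Fmod*, *Omd* and *Aspn*.

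Among class II genes, *Lum* encodes lumican, a keratan sulfate proteoglycan of collagenous tissues that is also secreted by osteoblasts. *Lum* stood at 1132, 1287, 1323 and 1191 CPM in *Piezo1*-deficient libraries, against 856, 972, 1007 and 879 CPM in WT libraries. The genotypes did not overlap, and replicate 1 was the lowest of each, unlike *Bgn*. The log2 fold change was 0.41 (SE 0.082, 95% interval 0.23 to 0.59, adjusted p = 0.0275 from edgeR). The call was lost without any 1 of 6 libraries, *Piezo1*-deficient replicates 3 and 4 and each WT replicate, where the adjusted p from edgeR was at most 0.0999. Osteomodulin, or osteoadherin, encoded by *Omd*, is a keratan sulfate proteoglycan of mineralized tissue made by osteoblasts. *Omd* stood at 138, 96.0, 118 and 85.8 CPM in *Piezo1*-deficient libraries, against 72.7, 45.1, 61.8 and 54.5 CPM in WT libraries. All *Piezo1*-deficient values were above all WT values, the closest being 85.8 CPM in *Piezo1*-deficient replicate 5 and 72.7 CPM in WT replicate 1. The log2 fold change was 0.90 (SE 0.17, 95% interval 0.53 to 1.28, adjusted p = 0.0205 from edgeR). The call was lost without *Piezo1*-deficient replicate 4 or WT replicate 3, 4 or 5, with an adjusted p of at most 0.0836 from edgeR.

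Fibromodulin, encoded by *Fmod*, binds type I collagen and takes part in fibril assembly in tendon. *Fmod* stood at 481, 265, 243 and 312 CPM in *Piezo1*-deficient libraries, against 347, 207, 184 and 189 CPM in WT libraries. Replicate 1 was far above the other 3 libraries in each genotype, and WT replicate 1 exceeded 3 of the 4 *Piezo1*-deficient libraries (exact permutation p = 0.171). The difference did not pass the test (edgeR log2 fold change 0.49, SE 0.24, 95% interval -0.05 to 1.03, adjusted p = 0.322). An alternative chosen after seeing the data left out replicate 1 of both genotypes, and *Fmod* then passed with almost the same size (edgeR log2 fold change 0.49, SE 0.095, adjusted p = 0.0135). *Bgn* also passed there (edgeR log2 fold change 0.29, SE 0.073, adjusted p = 0.0402), and 8 of the 10 members were called higher. Calls rose over all genes too, with 601 of 15498 tested genes called higher there, against 313 of 15318 with all libraries. *Piezo1*-deficient replicate 1, the library with the lowest TMM factor, had the highest sum of 17 collagen genes, 335418 CPM, against 232542 to 280197 CPM in the other *Piezo1*-deficient libraries. In WT replicate 1 that sum was 235366 CPM, against 190365 to 211560 CPM in the other WT libraries. The part of these libraries' makeup in the SLRP values was not tested beyond leaving them out.

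Osteoglycin, or mimecan, encoded by the class III gene *Ogn*, was first purified from bone and binds collagen fibrils. *Ogn* stood at 122, 116, 103 and 88.4 CPM in *Piezo1*-deficient libraries, against 57.3, 47.4, 63.2 and 56.3 CPM in WT libraries. The lowest *Piezo1*-deficient library was well above the highest WT library, and the mean was 1.91-fold higher. The log2 fold change was 0.93 (SE 0.11, 95% interval 0.68 to 1.19, adjusted p = 0.0035 from edgeR), and the adjusted p was at most 0.0199 in 15 alternatives run with edgeR or DESeq2. Podocan, encoded by *Podn*, is a collagen-binding SLRP first described in kidney. *Podn* was the least abundant member, with 26, 30, 36 and 33 counts in *Piezo1*-deficient libraries, against 17, 17, 23 and 11 counts in WT libraries. That made 2.20, 2.21, 2.64 and 2.87 CPM in *Piezo1*-deficient libraries, against 1.33, 1.24, 1.49 and 0.859 CPM in WT libraries, with no overlap. The log2 fold change of 1.00 (SE 0.22, 95% interval 0.51 to 1.48, adjusted p = 0.038 from edgeR) rested on these low counts. It lost its call without any 1 library other than *Piezo1*-deficient replicate 1, with an adjusted p of at most 0.120 from edgeR.

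*Prelp* encodes a heparin-binding class II protein without keratan sulfate chains that is abundant in cartilage. Its mean difference had the sign opposite to that of the other 9 members, at 11.8, 10.6, 12.96 and 16.9 CPM in *Piezo1*-deficient libraries, against 69.8, 27.5, 11.7 and 35.9 CPM in WT libraries. WT replicate 1 was the highest and WT replicate 4 lay within the range of *Piezo1*-deficient libraries. The coefficient of variation was 20.8% in *Piezo1*-deficient and 67.8% in WT libraries. The difference did not pass the test (edgeR log2 fold change -1.47, SE 0.43, 95% interval -2.41 to -0.53, adjusted p = 0.095). The size rested in part on single WT libraries. Without WT replicate 4 the difference passed (edgeR log2 fold change -1.77, SE 0.29, adjusted p = 0.0302). Without WT replicate 1 it was smaller and did not pass (edgeR log2 fold change -0.94, SE 0.32, adjusted p = 0.145), and without replicate 1 of both genotypes it was -0.90 (edgeR SE 0.33, adjusted p = 0.143).

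Other genes of the family were read from a list of 8, of which 6 were tested, none was called higher and 2 were called lower. The called genes were *Epyc* and *Chad*, both known from cartilage. *Epyc*, the class III gene of epiphycan, had 6, 4, 7 and 7 counts in *Piezo1*-deficient libraries, against 349, 127, 80 and 171 counts in WT libraries (edgeR log2 fold change -4.82, SE 0.59, adjusted p = 0.0039). *Chad*, the gene of chondroadherin, stood at 9.72, 6.12, 9.67 and 13.5 CPM in *Piezo1*-deficient libraries, against 35.6, 20.0, 23.1 and 25.5 CPM in WT libraries (edgeR log2 fold change -1.42, SE 0.23, adjusted p = 0.0125). *Chadl*, a relative of *Chad*, averaged 3.02 ± 0.54 CPM in *Piezo1*-deficient and 7.23 ± 3.39 CPM in WT libraries (SD, n = 4 each), and did not pass (adjusted p = 0.0659 from edgeR). *Tsku* and *Podnl1*, the genes of tsukushi and of a podocan-like protein, had log2 fold changes of -0.02 and -0.00, with 95% intervals of -0.21 to 0.17 and -0.18 to 0.17. *Nyx*, the gene of nyctalopin, known from the retina, had a mean of 0.90 CPM in *Piezo1*-deficient and 0.80 CPM in WT libraries, with an adjusted p of 0.858 from edgeR. *Kera* and *Optc*, the genes of keratocan and opticin, known from the eye, were too low to test. *Kera* had 23, 10, 10 and 4 counts in *Piezo1*-deficient libraries, against 23, 0, 0 and 0 counts in WT libraries.

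Within WT libraries, *Prelp*, *Epyc* and *Chadl* shared 1 order, with replicate 1 highest, then replicates 5, 3 and 4. *Chad* was also highest in replicate 1, but its lowest WT library was replicate 3. The summed level of 14 measured chondrocyte genes had the same order, at 7439, 4802, 3876 and 5849 CPM in WT replicates 1, 3, 4 and 5, while the *Piezo1*-deficient libraries held 481, 585, 556 and 591 CPM. Of those 14 chondrocyte genes 13 were called lower and none higher, and none of them was at 0 in all libraries. *Col2a1* averaged 294 ± 66.7 CPM in *Piezo1*-deficient and 2562 ± 1027 CPM in WT libraries (SD, n = 4 each). Taken singly, 10 of the 14 had the WT order of *Prelp*, and *Col10a1*, *Matn1*, *Sox9* and *Ihh* did not. The share of all tested genes with that order was not counted. The 14 genes are markers of 1 cell type and not separate observations. *Col10a1*, the collagen of hypertrophic chondrocytes, stood at 154, 177, 141 and 61.6 CPM in *Piezo1*-deficient libraries, against 1157, 1352, 1507 and 1655 CPM in WT libraries, where replicate 1 was the lowest. The part of chondrocyte genes in the *Prelp* values was not tested.

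**Figure D4:**
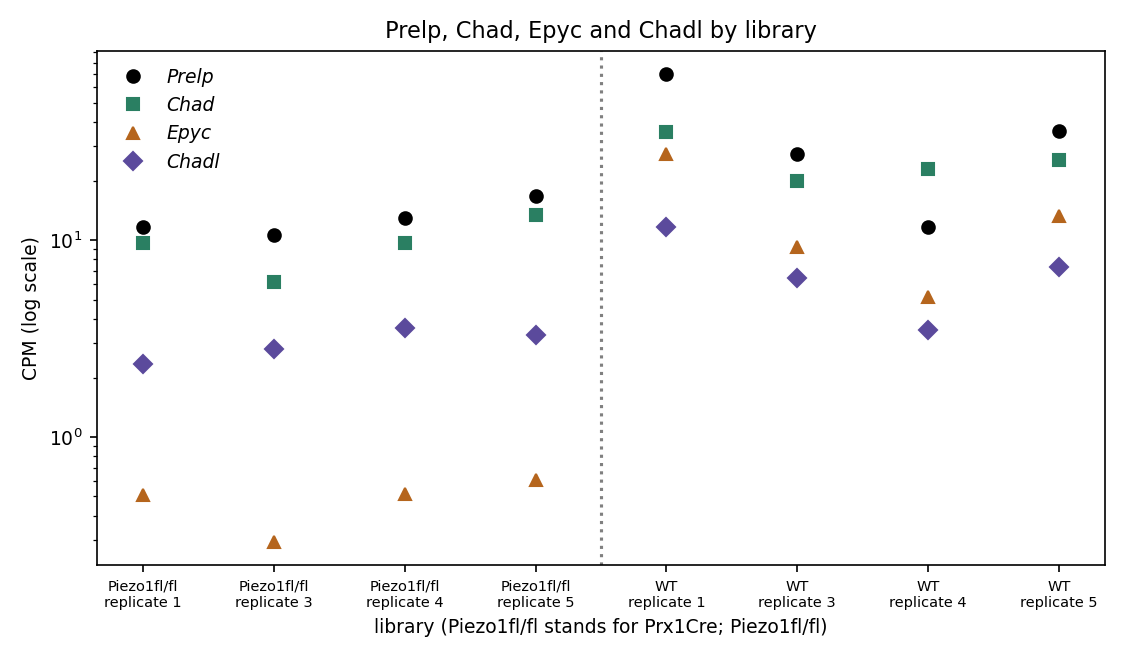
CPM (y axis, log scale) of *Prelp* and 3 other family genes in each of the 4 *Piezo1*-deficient libraries (left of the dotted line) and the 4 WT libraries (right). In WT libraries *Prelp*, *Epyc* and *Chadl* are highest in replicate 1 and lowest in replicate 4, where *Prelp* at 11.7 CPM lies among the *Piezo1*-deficient values of 10.6 to 16.9 CPM.

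Ratios of 2 members within a library do not depend on how libraries are scaled, and 6 pairs of relatives or neighbours were compared. The log2 ratio of *Fmod* to *Prelp* counts was 5.35, 4.64, 4.23 and 4.21 in *Piezo1*-deficient libraries, against 2.31, 2.91, 3.98 and 2.40 in WT libraries. The log2 ratio of *Ecm2* to *Aspn* counts was -3.99, -3.53, -3.78 and -3.60 in *Piezo1*-deficient libraries, against -3.41, -2.64, -3.07 and -2.76 in WT libraries. For these pairs the genotypes did not overlap, with differences of 1.71 and -0.75 on the log2 scale (exact two-sided permutation test, p = 0.0286 each, 0.0857 after Benjamini-Hochberg adjustment over the 6 pairs). The *Ecm2* to *Aspn* ratio was thus lower in every *Piezo1*-deficient library than in every WT library. Its p is the smallest that 4 against 4 libraries can give. With only these pairs at that value, the adjusted p could not fall under 0.05. The ratio of *Dcn* to *Bgn* counts was 0.460, 0.596, 0.647 and 0.513 in *Piezo1*-deficient libraries, against 0.406, 0.503, 0.508 and 0.486 in WT libraries (exact permutation p = 0.200). *Dcn* to *Lum*, *Omd* to *Ogn* and *Aspn* to *Ogn* also overlapped between genotypes. Their log2 differences were 0.11, -0.03 and 0.31 (exact permutation p = 0.229, 0.943 and 0.200). The exact permutation p was 0.0286 for *Dcn* to *Bgn* without *Piezo1*-deficient replicate 1 (log2 difference 0.30) and for *Aspn* to *Ogn* without WT replicate 1 (log2 difference 0.47).

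SLRP genes lie in clusters, which were placed with RefSeq positions on GRCm38.p6. On chromosome 13, *Ecm2* (chr13:49504810-49532789), *Aspn* (chr13:49544443-49567565), *Omd* (chr13:49582462-49592612) and *Ogn* (chr13:49608015-49624501) occupy 120 kb in a row. On chromosome 10, *Dcn* (chr10:97479500-97518163) and *Lum* (chr10:97565501-97572703) share 202 kb with *Kera* and *Epyc*. On chromosome 1, *Prelp* (chr1:133910304-133930102) and *Fmod* (chr1:134037254-134048280) share 151 kb with *Optc*. *Bgn* (chrX:73483601-73495936) and *Podn* (chr4:108014793-108031954) stand alone.

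The chromosome 13 genes all had higher levels in *Piezo1*-deficient libraries with no overlap between genotypes, and 3 of the 4 were called. Their fold changes were not equal, with *Ecm2*, at 1 end, at 0.49 and the other 3 between 0.90 and 1.21 on the log2 scale. The whole row lies inside the span of *Cenpp* (chr13:49464025-49652950), a kinetochore gene. *Cenpp* averaged 5.15 ± 0.91 CPM in *Piezo1*-deficient and 5.68 ± 0.54 CPM in WT libraries (SD, n = 4 each, log2 fold change -0.14, adjusted p = 0.700 from edgeR). The library kit does not mark strand, so reads from exons that overlap between genes cannot be told apart. The genes next to the row, *Ippk*, *Nol8* and *Iars*, had log2 fold changes of 0.01, -0.10 and 0.00, and none was called. In the chromosome 10 cluster *Dcn* and *Lum* were called higher and *Epyc* was called lower. The nearest protein-coding genes on each side, *Gm46240* and *Ccer1*, were not measured. The next ones, *Btg1* (chr10:96617001-96622813) and *Atp2b1* (chr10:98914630-99026143), lie farther off. They had log2 fold changes of -0.12 and 0.01 and were not called. On chromosome 1 *Prelp* and *Fmod* had opposite signs, and neither they nor the flanking *Lax1*, *Atp2b4*, *Btg2* and *Chit1* were called. The flanking genes were picked by position, after the values of the members were known.

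**Figure D5:**
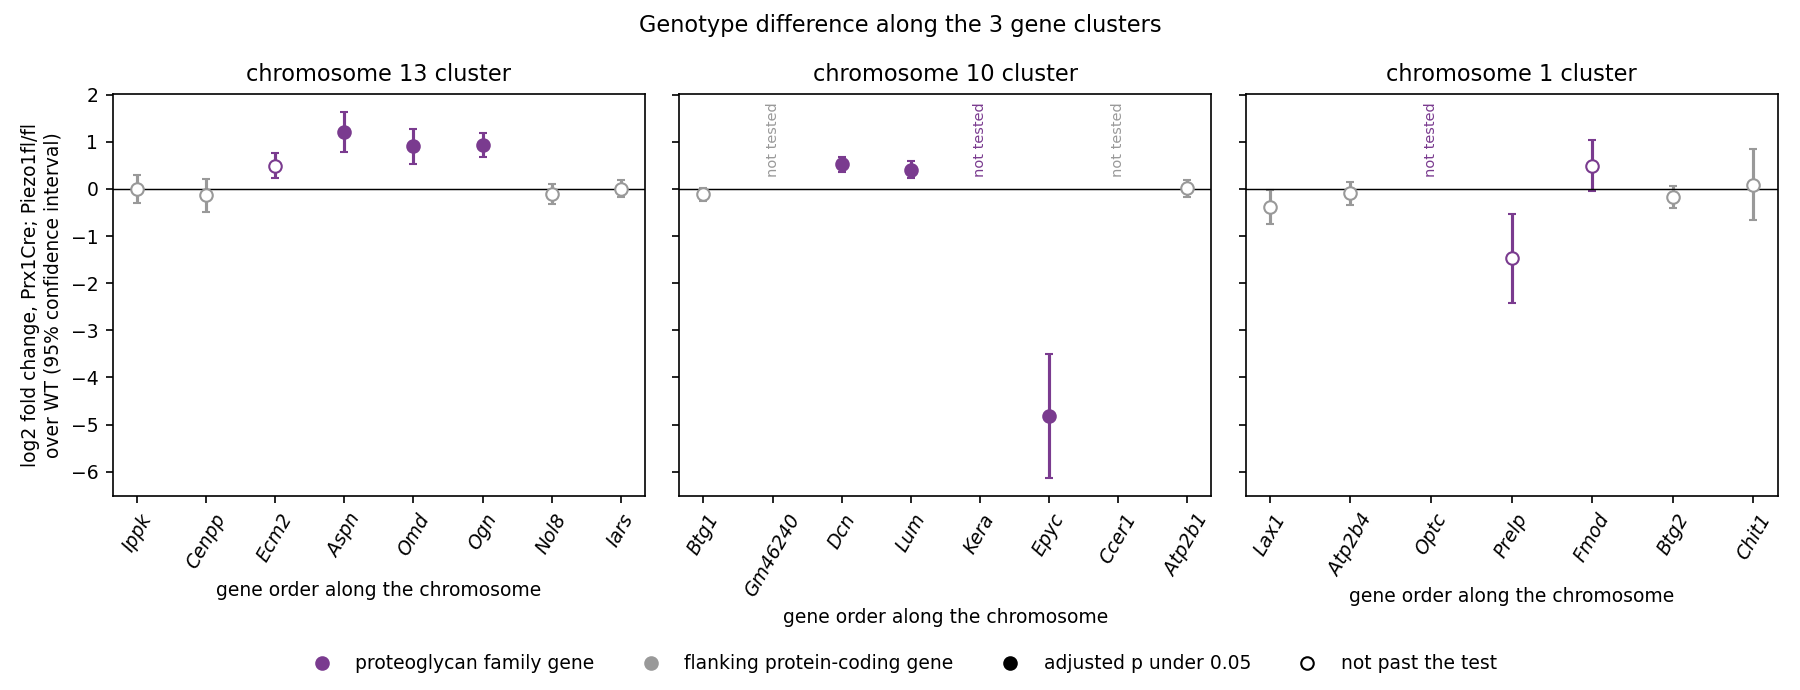
Log2 fold change (*Piezo1*-deficient over WT, y axis, with 95% confidence intervals) of SLRP family genes (purple) and flanking protein-coding genes (grey) in chromosome order for the 3 gene clusters. Filled symbols mark an adjusted p under 0.05. The flanking genes that were measured lie between -0.39 and 0.09, beside *Aspn*, *Omd* and *Ogn* at 0.90 to 1.21 and *Epyc* at -4.82.

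The 250 bases before the RefSeq start of the 4 chromosome 13 genes are shown because these genes were all higher without overlap and their upstream bases share a low GC content. Sequences are from RefSeq on GRCm38.p6, plus strand, which is the strand of these genes, and capitals mark matches to TATAAA on either strand. The windows are chr13:49504560-49504809 for *Ecm2*, chr13:49544193-49544442 for *Aspn*, chr13:49582212-49582461 for *Omd* and chr13:49607765-49608014 for *Ogn*.
Ecm2: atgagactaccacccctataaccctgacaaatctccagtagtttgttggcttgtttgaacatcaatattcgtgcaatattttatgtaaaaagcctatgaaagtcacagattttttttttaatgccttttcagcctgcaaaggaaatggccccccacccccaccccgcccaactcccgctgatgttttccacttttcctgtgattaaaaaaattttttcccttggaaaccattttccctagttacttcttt
Aspn: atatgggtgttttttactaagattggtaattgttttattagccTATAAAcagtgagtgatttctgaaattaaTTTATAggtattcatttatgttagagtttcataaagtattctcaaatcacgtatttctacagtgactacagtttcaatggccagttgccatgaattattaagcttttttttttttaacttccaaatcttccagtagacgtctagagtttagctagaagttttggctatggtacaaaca
Omd: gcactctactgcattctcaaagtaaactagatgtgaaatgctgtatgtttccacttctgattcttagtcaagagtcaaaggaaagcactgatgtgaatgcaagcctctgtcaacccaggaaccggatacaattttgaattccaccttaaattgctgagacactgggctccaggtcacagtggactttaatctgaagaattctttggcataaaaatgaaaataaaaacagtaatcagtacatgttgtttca
Ogn: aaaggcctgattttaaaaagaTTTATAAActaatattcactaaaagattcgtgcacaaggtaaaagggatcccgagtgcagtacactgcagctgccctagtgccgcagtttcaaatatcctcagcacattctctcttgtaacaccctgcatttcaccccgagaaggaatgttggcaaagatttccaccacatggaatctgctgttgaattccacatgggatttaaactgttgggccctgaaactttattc

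GC made up 40.0% of the *Ecm2* window, 30.0% of *Aspn*, 38.4% of *Omd* and 42% of *Ogn*. Over 32851 promoter windows of the same length the median was 52.4%, and 16.9% of windows had 42% or less. The windows shown were picked with their GC content known and lie close together on chromosome 13, so they are not separate observations. The windows of the other members that could be read had more, with 51.2% for *Fmod*, 55.6% for *Prelp*, 64.4% for *Bgn*, and 78.0% and 64.0% for the alternative starts of *Podn*. *Podn* was also called higher. Windows were at hand for 8 of the 10 members, and not for *Dcn* and *Lum*. TATAAA was found in the windows of *Aspn* and *Ogn*, in each on both strands, with the pair overlapping in *Ogn*, and in 12.37% of all windows. Of the further motifs searched on both strands, GGAATG, the TEAD motif, was found in *Ogn* and in 12.64% of all windows. TGTGGT, the RUNX motif, was found in *Ogn* and in 14.05% of all windows, and CAGCTG, an E-box that reads alike on both strands, in *Bgn*, *Ogn* and *Podn* and in 13%. TGANTCA, the AP-1 motif, was found in no member and in 6.75% of all windows. A match describes the letters of a window and not a bound site.

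SLRPs act together with the collagens they coat and with the enzymes that build their sugar chains. Of 17 fibrillar and fibril-associated collagen genes, 2 were called higher and 4 lower, and the median log2 fold change was 0.34. Among the called, *Col6a2*, a chain of the beaded filaments that biglycan binds, averaged 761 ± 123 CPM in *Piezo1*-deficient and 514 ± 72.2 CPM in WT libraries (SD, n = 4 each, log2 fold change 0.56, adjusted p = 0.044 from edgeR). The cartilage collagens *Col2a1*, *Col9a1* and *Col9a2* were called lower, with log2 fold changes of -3.12, -4.12 and -3.76. Of 22 genes of chondroitin and dermatan sulfate synthesis, 1 was called higher and 2 lower, with a median of 0.05. *Chpf*, a chondroitin polymerizing factor, averaged 97.5 ± 6.30 CPM in *Piezo1*-deficient and 70.7 ± 8.30 CPM in WT libraries (SD, n = 4 each, log2 fold change 0.46, adjusted p = 0.0241 from edgeR). *Xylt1*, which adds the first sugar to the core protein, averaged 4.79 ± 0.67 CPM in *Piezo1*-deficient and 9.05 ± 1.66 CPM in WT libraries (SD, n = 4 each, log2 fold change -0.91, adjusted p = 0.0205 from edgeR). The other xylosyltransferase gene of the list, *Xylt2*, was more abundant, with a mean over all libraries of 34.9 CPM, against 6.92 CPM for *Xylt1*. *Xylt2* was not called (log2 fold change 0.10, adjusted p = 0.633 from edgeR). *Chst3*, a chondroitin 6-O-sulfotransferase, had a log2 fold change of -0.76 (adjusted p = 0.0454 from edgeR). None of 8 measured genes of keratan sulfate synthesis and tyrosine sulfation was called, and the most abundant, *B4galt1* and *Tpst2*, had log2 fold changes of 0.09 and 0.15.

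Of 14 ligands and receptors of SLRPs, 1 was called, and it was higher. *Tgfb3*, a TGF-β ligand, stood at 119, 111, 118 and 111 CPM in *Piezo1*-deficient libraries, against 86.1, 95.03, 85.2 and 86.8 CPM in WT libraries. The genotypes were separated by more than their spread (edgeR log2 fold change 0.38, SE 0.063, adjusted p = 0.0140). Of 10 tested proteases that cleave SLRPs, 1 was called, and it was lower. That gene, *Mmp9*, the gelatinase of osteoclasts and neutrophils, averaged 1881 ± 429 CPM in *Piezo1*-deficient and 2998 ± 133 CPM in WT libraries (SD, n = 4 each, log2 fold change -0.67, adjusted p = 0.0294 from edgeR).

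Several cell types make SLRPs, and markers of some of them moved with genotype. Of 13 tested tendon and periosteal fibroblast genes, 5 were called higher and 1 lower, and the median log2 fold change was 0.70. The sum of these genes overlapped between genotypes, at 3632 to 4828 CPM in *Piezo1*-deficient and 3338 to 4116 CPM in WT libraries. *Postn*, periostin, stood at 1519, 1293, 1265 and 1183 CPM in *Piezo1*-deficient libraries, against 950, 704, 733 and 557 CPM in WT libraries (edgeR log2 fold change 0.84, SE 0.15, adjusted p = 0.0165). *Thbs4* and *Cilp2* were called higher too, with log2 fold changes of 1.84 and 2.97, while *Comp*, which cartilage also makes, was called lower at -2.82. Of 11 osteoblast genes 3 were called higher, *Bglap*, *Bglap2* and *Tnfrsf19*. The sum of all 11 was 230005 to 331308 CPM in *Piezo1*-deficient and 187629 to 229710 CPM in WT libraries. Most of that sum came from *Col1a1* and *Col1a2*, with means over all libraries of 113383 and 106599 CPM. Neither was called (adjusted p = 0.134 and 0.197 from edgeR). *Bglap* and *Bglap2* are near-identical copies, so their counts are uncertain one by one. None of 8 osteocyte genes, 8 marrow stromal genes or 7 endothelial genes was called.

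Muscle and nerve markers also moved. Of 12 skeletal muscle genes 11 were called higher, and their sum was 420, 4098, 1657 and 452 CPM in *Piezo1*-deficient libraries, against 32.5, 28.2, 155 and 92.1 CPM in WT libraries. Every *Piezo1*-deficient muscle sum was above every WT sum. *Piezo1*-deficient replicate 3 had by far the most muscle RNA, followed by replicate 4. Among *Piezo1*-deficient libraries, *Ecm2* was highest in replicate 3, and *Dcn* and *Lum* were highest in replicate 4. Of the other members, 5 were highest in replicate 1 and 2 in replicate 5. Of 7 tested Schwann cell genes 3 were called higher, with sums of 120 to 207 CPM in *Piezo1*-deficient and 93.8 to 104 CPM in WT libraries. Of 8 osteoclast genes 3 were called lower, with sums of 5022 to 7377 CPM in *Piezo1*-deficient and 8366 to 9584 CPM in WT libraries. No gene of these marker lists was at 0 in all libraries, and the part of these cells in the SLRP differences was not tested.

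The genes whose pattern over the 8 libraries was most like that of a called member were found among about 9490 genes with a mean of at least 10 CPM, by the root mean square (RMS) difference of centred log2 CPM. For *Dcn* these were *Fxyd1*, *Clec11a* and *Podxl2*, at RMS differences of 0.047, 0.063 and 0.064. *Clec11a* encodes osteolectin, a bone growth factor. For *Lum* they were *Serping1*, *Ndufa5* and *Car3*, at 0.071, 0.073 and 0.081. *Ogn* was most like *Itm2a* and *Prss23*, and then *Omd*, at 0.15, 0.15 and 0.18, and *Omd* was most like *Dclk1*, *Ogn* and *Fras1*, at 0.16, 0.18 and 0.18. The neighbours *Ogn* and *Omd* were thus among each other's 3 most similar genes. *Aspn* was most like *Ptn*, the gene of the growth factor pleiotrophin, at 0.12, followed by *Fras1* and *Postn*, at 0.21 and 0.23. For the low *Podn* the nearest were *Cd300lg*, *Il11ra1* and *Fxyd6*, at 0.12, 0.13 and 0.14. *Fras1*, a basement membrane gene, came up for both *Omd* and *Aspn*, with a log2 fold change of 1.07 (adjusted p = 0.0028 from edgeR). Likeness here holds the genotype difference itself, since every called member was separated between the genotypes.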

How the data were processed

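RNA-Seq libraries (TruSeq kit, which does not mark strand) of 4 *Prx1Cre; Piezo1fl/fl* and 4 WT samples were read from 1 deposited table of raw counts per gene. For mapping, HISAT2 and GRCm38 appear in the submitters' processing notes, and TopHat and mm9, followed by Cufflinks and Cuffdiff, in the published methods. The counter and annotation behind the counts are not given in the sources used here. The table's columns of the authors' fold changes, p-values and FDR were not used, and 0 sample columns were left out. Since the table holds counts, a count model took the place of Cuffdiff.

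Counts were tested with edgeR 4.0.16 (R 4.3.3, filterByExpr, TMM, quasi-likelihood F test, genotype only, Benjamini-Hochberg over 15318 genes). The SE was the absolute log2 fold change divided by the square root of F. Single genes and ratios were compared by two-sided exact permutation over 70 arrangements, on log2(CPM + 0.5) for genes. The labels do not say whether replicate numbers mark pairs, and same-numbered deviations had correlations of 0.36, -0.22, 0.19 and -0.00. No 2 libraries of a genotype agreed within counting noise. Exon lengths came from GENCODE M1 (NCBIM37), and positions and promoters from RefSeq (GRCm38.p6). The tests were tried on simulated data. Intervals cover the spread between libraries only.

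Alternatives were DESeq2 1.42.0 size factors, its Wald test, no filter, a mean of 5 CPM, a replicate block, library sizes without *Col1a1*, *Col1a2* and *Sparc*, leaving out each library, and, added after seeing the data, leaving out replicate 1 of both genotypes. Gene lists, like the members, were chosen with earlier results of these data known. Named were all members, the other family genes, *Piezo1*, up to 4 called genes of highest CPM per list (2 where none was called) and the 3 most similar genes of each called member. Flanking genes, *Col1a1*, *Col1a2*, *Matn1*, *Sox9*, *Ihh* and *Xylt2* fall outside this rule and were picked with their values known.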

Additional observations from a re-analysis of the deposited data

Results flagged for a closer look

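Of 80 groups of 4 libraries checked, 6 had 1 library outside the range that Dixon's criterion allows, and chance alone flags about 5% of groups. *Fmod* was at 347 CPM in WT replicate 1, while the other WT libraries lay between 184 and 207 CPM. *Kera* was at 1.80 CPM in WT replicate 1, and at 0 in the other WT libraries. *Nyx* was at 0.369 CPM in *Piezo1*-deficient replicate 3, while the other *Piezo1*-deficient libraries lay between 1.01 and 1.13 CPM. The keratan sulfate and tyrosine sulfation genes summed to 233 CPM in WT replicate 1, against 199.7 to 203 CPM in the other WT libraries. The proteases that cleave SLRPs summed to 9283 CPM in WT replicate 1, against 8351 to 8435 CPM in the other WT libraries. The log2 ratio of *Omd* to *Ogn* was 0.34 in WT replicate 1, against -0.07 to -0.03 in the other WT libraries. WT replicate 1 is the library in 5 of these 6 cases, and the values of *Fmod* and *Bgn* without it and *Piezo1*-deficient replicate 1 stand with those genes above.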

How the results depend on the processing

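The direction of all 10 members held in every alternative in which they were tested. *Dcn*, *Ogn* and *Aspn* passed the test in all 15 alternatives, with adjusted p up to 0.0290, 0.0199 and 0.0431. Members called higher numbered 6 with DESeq2 size factors, without a filter and with library sizes lacking *Col1a1*, *Col1a2* and *Sparc*. They numbered 5 with a mean of 5 CPM, where *Podn* was not tested, 7 with the Wald test of DESeq2, 7 with the replicate block, 8 without replicate 1 of both genotypes, and 3 to 6 with 1 library left out. Members called lower numbered 0 to 1 with 1 library left out, the 1 being *Prelp* without WT replicate 4. Over all genes, calls higher (313) and lower (149) became 613 and 347 with the Wald test of DESeq2, 506 and 320 with the replicate block, and 601 and 412 without replicate 1 of both genotypes. With 1 library left out they ran from 71 to 415 and from 49 to 271. The log2 fold changes of *Bgn* ran from 0.21 to 0.39 those of *Fmod* from 0.23 to 0.75 and those of *Prelp* from -1.77 to -0.90.

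With 1 library left out, the log2 ratio differences ran from 0.14 to 0.30 for *Dcn* to *Bgn*, 0.07 to 0.15 for *Dcn* to *Lum*, 1.46 to 2.07 for *Fmod* to *Prelp*, 0.18 to 0.47 for *Aspn* to *Ogn* and -0.90 to -0.64 for *Ecm2* to *Aspn*. *Omd* to *Ogn* ran from -0.090 to 0.068 and changed sign without *Piezo1*-deficient replicate 3 (0.065) or WT replicate 1. Leaving out any 1 of the *Piezo1*-deficient libraries, the exact permutation p was 0.0571 for *Fmod* to *Prelp* and *Ecm2* to *Aspn*. It was 0.0286 for *Dcn* to *Bgn* without *Piezo1*-deficient replicate 1 and for *Aspn* to *Ogn* without WT replicate 1. These p-values were not adjusted over the pairs. The cause of these shifts was not tested.

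With the replicate block, *Fmod* (log2 fold change 0.49, adjusted p = 0.0118 from edgeR) and *Ecm2* (0.49, adjusted p = 0.0466) gained the call and *Podn* (1.00, adjusted p = 0.0517) lost it. The labels do not say whether same-numbered libraries are pairs. The correlation of *Piezo1*-deficient with WT replicate 1, 0.36, was the highest between the genotypes, and not every library correlated best with its own number. Low counts limit *Podn*, *Kera*, *Optc* and *Nyx*.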
